A study of Homo sapiens with 3 samples.

Results

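The transcripts described here are 10 messenger RNAs that are known to begin with a 5′ terminal oligopyrimidine tract, or TOP, but code for neither a ribosomal protein nor an elongation or initiation factor: TPT1, NPM1, NACA, BTF3, PFDN5, NAP1L1, IMPDH2, PABPC1, RACK1 and NOP53. They were found by gene symbol among 18417 genes with a probe set of their own. Of the 10, 9 were measured, on 13 probe sets in all, and all 9 passed the filter on low signal that left 12063 genes. RACK1 has no probe set under its symbol in the annotation used here, and its level was not analysed.

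RNA came from the established human stem cell line H9, of embryonic origin and kept in pluripotent conditions, and the labels name no genetic change or treatment. There were 3 sources, each hybridised to 1 Affymetrix gene array: polysome-bound RNA, polysome-unbound RNA (free of polysomes) and total RNA. Because each source has 1 array, no difference below has a replicate check or a p-value. On the total RNA array 13 of 15 measured pluripotency markers lay above background, and the median log2 level of the list was 8.94. LIN28A had 11.10 and SOX2 9.50, while GDF3 (3.48) and FOXD3 (3.27) lay below background. Of 10 fibroblast markers 8 lay above background (median 5.58), and COL1A2 (10.11) and COL1A1 (9.86) were higher than SOX2. Of 12 early differentiation markers 9 lay above background (median 3.95).

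TOP mRNAs start with a cytidine followed by an unbroken run of pyrimidines. The kinase mTOR controls their translation as a group: when nutrients or growth signals are scarce, the RNA-binding protein LARP1 holds the tract and the cap, and these mRNAs leave the polysomes and stay as stable untranslated particles. Most TOP mRNAs code for the ribosome and its factors, and the ones described here serve ribosome assembly, the handling of new proteins, RNA binding and growth.

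The RefSeq starts of the transcripts show the feature that names the class. Of the 10, 8 have a start in the table of RefSeq starts used here (GRCh38.p14), and the bases from 15 before the annotated start to 25 from it are printed 5′ to 3′. IMPDH2 and PABPC1 are not in that table, so their starts were not examined. Capitals mark the longest run that opens with C and goes on with at least 4 further pyrimidines, beginning within 5 bases of the start.
TPT1, chr13:45341159-45341198, minus strand: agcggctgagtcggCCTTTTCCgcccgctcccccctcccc
NPM1, chr5:171387834-171387873, plus strand: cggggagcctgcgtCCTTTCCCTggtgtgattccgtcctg
NACA, chr12:56725275-56725314, minus strand: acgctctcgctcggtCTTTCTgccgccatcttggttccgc
BTF3, chr5:73498427-73498466, plus strand: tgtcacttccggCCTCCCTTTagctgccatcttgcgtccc
PFDN5, chr12:53295527-53295566, plus strand: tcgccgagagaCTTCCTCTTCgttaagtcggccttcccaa
NAP1L1, chr12:76084661-76084700, minus strand: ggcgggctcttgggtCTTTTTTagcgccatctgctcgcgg
RACK1, chr5:181243882-181243921, minus strand: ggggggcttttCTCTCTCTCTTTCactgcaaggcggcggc
NOP53, chr19:47745531-47745570, plus strand: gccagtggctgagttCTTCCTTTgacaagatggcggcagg

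All 8 hold such a run, and in all 8 a run of at least 5 pyrimidines also opens with a C exactly at the annotated start. Among the 9715 genes past the signal filter that have a RefSeq start, 29.7% hold a run within 5 bases and 7.41% hold it exactly at the start. The transcripts were picked as known TOP mRNAs, so their tracts describe the choice. The marked runs range from 6 bases in NACA to 13 in RACK1, and NPM1 has a further annotated start without a run. These are windows of the annotation, and the start used in H9 cells was not measured.

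Of 27 relatives or partners with a RefSeq start that are not on the list, 6 hold a run within 5 bases (NACA2, PFDN1, VBP1, NAP1L5, GMPR2 and PABPC5), and NACA2 and GMPR2 hold it exactly at the start. For contrast, 4 that were picked because they have no such run are shown, each with 1 annotated start (NAP1L4 has 4 in the table).
NPM3, chr10:101783422-101783461, minus strand: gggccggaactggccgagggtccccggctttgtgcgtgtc
BTF3L4, chr1:52056280-52056319, plus strand: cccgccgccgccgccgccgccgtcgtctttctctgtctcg
PFDN4, chr20:54208072-54208111, plus strand: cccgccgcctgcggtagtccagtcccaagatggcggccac
NAP1L4, chr11:2992305-2992344, minus strand: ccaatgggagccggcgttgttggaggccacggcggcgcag

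Setting bound against unbound RNA places each mRNA between the pools relative to other genes, and gives no absolute share on polysomes. All 9 measured mRNAs had a lower deposited log2 level in bound than in unbound RNA, as did 751 of all 12063 genes tested. The median of all genes was higher in bound RNA by 1.20. Levels are log2 values per probe set as the authors deposited them. Because the scaling between the arrays is unknown, a relative difference is also given: the log2 difference minus the offset between the array medians over the 12063 genes, which was 1.26 for bound minus unbound, 1.03 for bound minus total and -0.23 for unbound minus total. A gene counts as 2-fold apart at a difference of at least 1. Measurements on bulk RNA cannot tell a change in every cell from a change in the share of cells that hold the transcript.

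Among the mRNAs for handling new proteins, NACA (Entrez gene 4666), the alpha subunit of the nascent polypeptide-associated complex at the ribosome exit, had log2 levels of 11.13 in bound, 11.83 in unbound and 10.97 in total RNA. BTF3 (gene 689), the beta subunit of that complex, had 8.97 in bound, 9.39 in unbound and 9.03 in total RNA. The unbound array was the highest for both subunits. Their relative differences for bound minus unbound were -1.96 for NACA and -1.68 for BTF3. PFDN5 (gene 5204), a subunit of the prefoldin chaperone that passes new actin and tubulin to the chaperonin, had 8.75 in bound, 9.88 in unbound and 8.24 in total RNA. Its unbound level stood clear of the other arrays, and the relative difference for bound minus unbound was -2.40. As deposited that is a 2.19-fold lower level in bound RNA.

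Among the RNA-binding and ribosome assembly proteins, PABPC1 (gene 26986), the cytoplasmic poly(A)-binding protein, had log2 levels of 10.90 in bound, 12.13 in unbound and 11.56 in total RNA. It was 2.34-fold lower in bound than in unbound RNA as deposited, and its relative difference was -2.49. NOP53 (gene 29997), a nucleolar factor of large subunit maturation, had 8.25 in bound, 10.02 in unbound and 8.79 in total RNA. This 3.41-fold lower deposited level in bound RNA gave a relative difference of -3.03. NPM1 (gene 4869), the nucleolar chaperone nucleophosmin, had 11.87 in bound, 12.07 in unbound and 12.07 in total RNA. As deposited its differences were -0.20 for bound minus unbound, -0.20 for bound minus total and -0.0075 for unbound minus total, and its relative difference of -1.46 for bound minus unbound was the nearest of the 9 to zero.

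TPT1 (gene 7178), the translationally controlled tumor protein, had log2 levels of 10.06 in bound, 11.86 in unbound and 10.60 in total RNA. Bound RNA was 3.49-fold below unbound RNA as deposited, the widest gap of the 9, with a relative difference of -3.06. NAP1L1 (gene 4673), a histone chaperone, had 11.29 in bound, 11.64 in unbound and 11.46 in total RNA, and a relative difference of -1.60. IMPDH2 (gene 3615), the rate-limiting enzyme of guanine nucleotide synthesis, had 9.52 in bound, 10.17 in unbound and 9.75 in total RNA, and a relative difference of -1.92. With no second array per source, none of these gaps can be set against a spread between replicates.

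**Figure D1:**
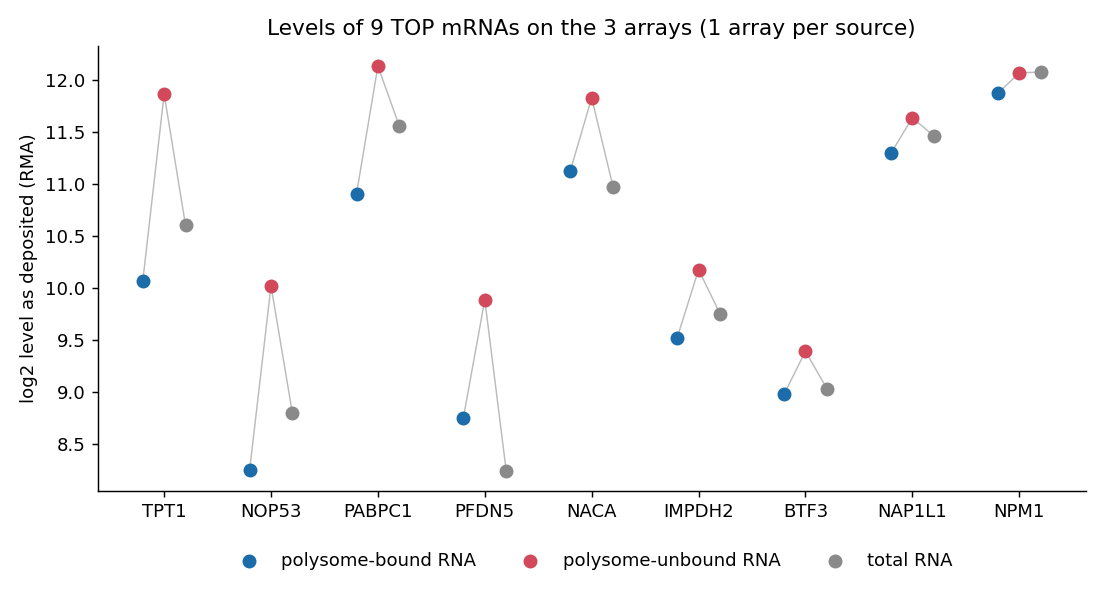
Log2 levels as deposited (y axis) of the 9 measured mRNAs (x axis, from the lowest to the highest relative difference for bound minus unbound RNA), 1 point per array. Unbound RNA is the highest point for every mRNA except NPM1, whose unbound and total levels both round to 12.07.

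After centring, 9 of 9 were at least 2-fold lower in bound than in unbound RNA, against 9.91% of all genes tested, and 0 of 9 were 2-fold higher, against 6.35%. As deposited 4 of 9 were at least 2-fold lower (TPT1, NOP53, PABPC1 and PFDN5), against 1.56% of all genes, and 0 of 9 were 2-fold higher, against 61.4%. The median relative difference of the 9 was -1.96, beside -0.07 over all genes, and their values ran from -3.06 to -1.46, which placed them between percentiles 0.564 and 4.67 of the 12063 genes. The SD among the 9 was 0.599, beside 0.798 over all genes.

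The other TOP classes had values in the same range. On the centred scale all 11 TOP mRNAs of elongation and initiation factors had 2-fold lower bound than unbound levels, with a median of -2.10, from EIF3L (-2.79) and EIF3F (-2.63), subunits of the initiation factor that recruits the small ribosomal subunit, to EIF2S3 (-1.54) and the elongation factor subunit EEF1B2 (-1.44). The count was 7 of 11 after lowess, 6 of 11 with quantile normalization and 4 of 11 as deposited. The 58 measured ribosomal protein mRNAs had a median of -2.59, from RPS21 (-3.45) and RPL10A (-3.39) to RPS23 (-1.61) and RPL19 (-1.51), and TPT1 and NOP53 lay below that median while the other 7 lay above it. Of the 58, 58 were 2-fold lower after centring, 51 after lowess, 45 with quantile normalization and 42 as deposited. The mRNAs of proteins listed as TOP regulators, for a possible part in tract binding or signalling, lay nearer to the median of all genes. Whether each listed protein acts on TOP mRNAs was not tested. Of 16 regulators past the filter 2 were at least 2-fold lower, against 9.91% of all genes, and 0 were 2-fold higher, against 6.35%. The 2 lower ones were RPS6KB2 (-1.14), a ribosomal S6 kinase, and the mTOR partner MLST8 (-1.03). The median of the regulators was 0.11, and LARP1 (0.95) and MTOR (0.87) were their 2 highest. The others ran from EIF4EBP2 (-0.95), LARP1B (-0.54), TIAL1 (-0.33), LARP4 (-0.29), SSB (-0.23) and PATL1 (-0.12) through RPS6KB1 (0.35), TIA1 (0.35), CNBP (0.39) and LARP4B (0.43) to the mTOR partner RPTOR (0.66) and the cap-complex inhibitor EIF4EBP1 (0.74).

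**Figure D2:**
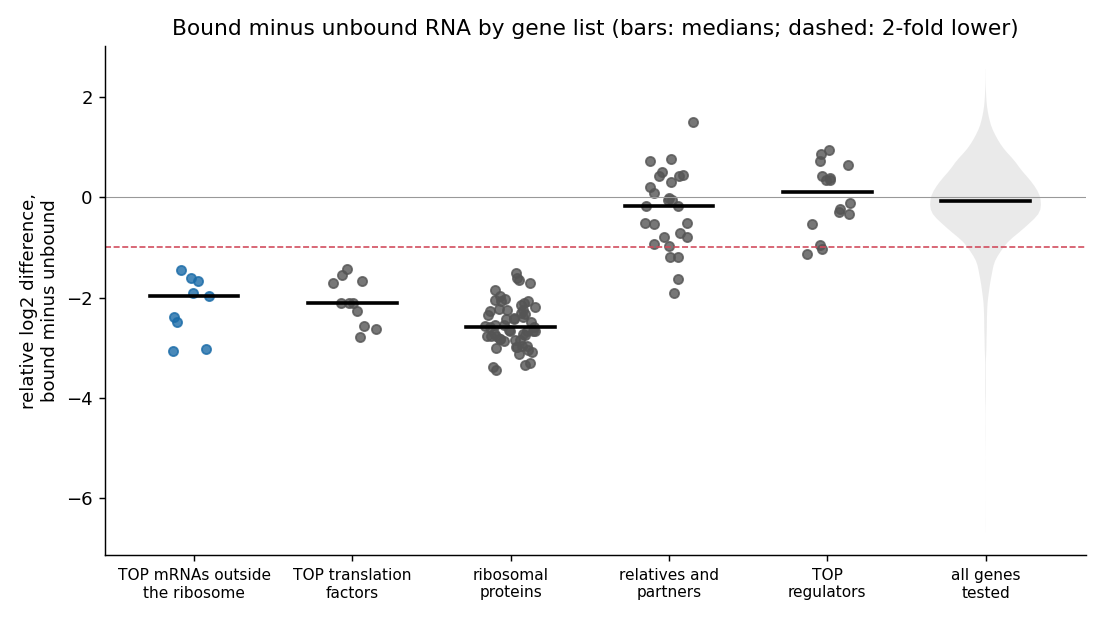
Relative log2 difference, bound minus unbound RNA (y axis), for 5 gene lists (points are genes, black bars medians) and for all 12063 genes tested (grey shape). The TOP mRNAs outside the ribosome, TOP translation factors and ribosomal proteins all lie under the dashed 2-fold line at -1, with medians of -1.96, -2.10 and -2.59, and the lists of relatives and regulators have medians of -0.16 and 0.11.

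As deposited, all 22 relatives and partners of measured TOP mRNAs that passed the filter had a higher bound minus unbound difference than their TOP mRNA. Centring subtracts 1 constant from every gene and cannot change this order. With the lowess trend removed and with quantile normalization, 17 of 22 lay higher. The 5 that lay below their TOP mRNA on both of those scales were PABPC3 and PABPC4, NAP1L2 and NAP1L3, and NPM3, which had -0.97 after lowess beside -0.16 for NPM1. Most genes of any kind would also lie above the TOP mRNAs after centring, which held percentiles 0.564 to 4.67 of all genes tested. The order of relatives and TOP mRNAs was compared across scalings after the data were seen, and the values that follow are centred ones. Of 27 past the filter, 4 had a relative difference of -1 or less, against 9.91% of all genes. A value of 1 or more was seen for 1 of the 27, against 6.35% of all genes, and the median was -0.16. In prefoldin, PFDN5 had -2.40, while the other 5 subunits had -0.96 (PFDN4), -0.79 (PFDN6), 0.22 (PFDN1), 0.43 (PFDN2) and 1.51 (VBP1). The TOP subunit had the lowest value of the complex, and VBP1 the highest of all 27 relatives and partners. The relative difference of BTF3 was -1.68, beside -0.50 for its homolog BTF3L4. NAP1L1 had -1.60, beside values from -0.70 (NAP1L2) and -0.52 (NAP1L3) to 0.30 (NAP1L4) and 0.43 (NAP1L5) in its family.

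NPM1 had -1.46 and its relative NPM3 -0.93. In guanine nucleotide synthesis IMPDH2 had -1.92 and its isozyme IMPDH1 -0.16, while GMPS, the enzyme of the next step, had -1.20, and the GMP reductase GMPR had 0.50. MTREX, the RNA helicase that NOP53 binds, had -0.79 beside -3.03 for NOP53, and RABIF, a structural relative of TPT1, had -0.51 beside -3.06. For the unmeasured RACK1, the G protein beta subunits of the same fold ran from -0.0022 (GNB1) and -0.04 (GNB3) to 0.45 (GNB5), 0.73 (GNB2) and 0.77 (GNB4). The relatives NPM2, NACA2 and NACAD did not pass the filter.

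Most of the poly(A)-binding protein family lay to the unbound side. PABPC1 had -2.49, PABPC3 -1.91, PABPC4 -1.63 and PABPC1L -1.19, whereas PABPC5 had -0.17 and the PABPC1-interacting proteins PAIP1 and PAIP2 had -0.04 and 0.09. PABPC3 is an intronless copy of PABPC1, so its probe set may read PABPC1 transcripts, and the share was not tested. PABPC4 had deposited levels of 8.82 in bound, 9.19 in unbound and 9.04 in total RNA, the same order of arrays as PABPC1.

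**Figure D3:**
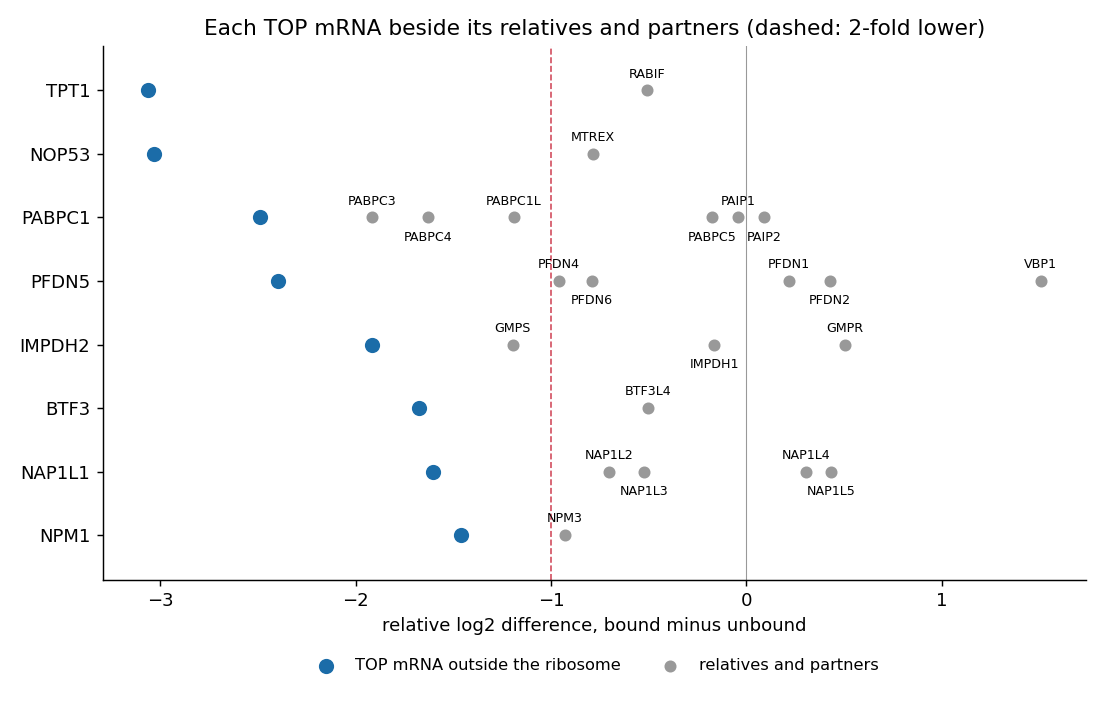
Relative log2 difference, bound minus unbound RNA (x axis), of 8 TOP mRNAs (blue) and their relatives or partners past the filter (grey), 1 row per TOP mRNA. On this centred scale the TOP mRNA is the leftmost point of each row, an order that turned for PABPC3, PABPC4, NAP1L2, NAP1L3 and NPM3 after lowess and quantile normalization. Most genes of any kind would lie to the right of the TOP mRNAs on the centred scale. Of the relatives shown PABPC3, PABPC4, PABPC1L and GMPS lie left of the dashed 2-fold line.

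Several probe sets bear on 3 of the genes. A second TPT1 probe set, with log2 levels of 5.70 in bound, 6.47 in unbound and 5.98 in total RNA, had a relative difference of -2.03 for bound minus unbound, smaller than the -3.06 of the main probe set and on the same side. The 3 NPM1 probe sets designed on its transcript variants had values from -1.49 to -1.46, and a further probe set with a bound level of 3.96 lay below the bound array's background of 4.39. A probe set shared by TPT1 and the snoRNA SNORA31 of its intron, with deposited levels of 4.88 in bound, 4.57 in unbound and 4.63 in total RNA, had a relative difference of -0.95. A probe set shared by NOP53 and LOC440311 had -2.75, beside -3.03 for that of NOP53 alone. Several of these genes have processed copies in the genome, and those with a probe set were dim: deposited levels ran from 3.61 (PABPC1P2) to 4.44 (TPT1P8) in bound RNA and from 3.36 to 3.78 in unbound RNA. How far copies contribute to the values of the parent genes was not tested.

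The signal level of the probe sets moved with the difference. All 9 mRNAs lay in the tenth of genes with the highest mean signal over the bound and unbound arrays, where 22.0% of genes had 2-fold lower bound levels and the median relative difference was -0.24. Of the 91 genes with a mean signal of at least 11 on the log2 scale, 41 were ribosomal proteins, TOP translation factors or the mRNAs described here, with a median of -2.49. The other 50 had a median of -0.82, and 23 of them were 2-fold lower. By genomic span, PFDN5 was among the 1206 shortest genes, up to 4.20 kb, of which 26.8% had 2-fold lower bound levels. TPT1, BTF3 and IMPDH2 lay between 4.20 and 8.76 kb, where the share was 15.02%. The other 5 were longer, in bins where the share ran from 5.64% to 10.7%, and the part of span in the differences was not tested. Removing the trend of the difference with signal by lowess left 6 of 9 at least 2-fold lower (9.33% of all genes), from NOP53 (-2.93), PFDN5 (-2.25) and TPT1 (-2.24) to PABPC1 (-1.41), while NACA (-0.90), NAP1L1 (-0.55) and NPM1 (-0.16) were not. Quantile normalization also left 6 of 9 (7.26% of all genes), with NACA at -0.61, NAP1L1 at -0.25 and NPM1 at 0.072. The 2-fold calls of NACA, NAP1L1 and NPM1 therefore depended on the scaling, and those of TPT1, NOP53, PFDN5, PABPC1, IMPDH2 and BTF3 did not among centring, lowess and quantile normalization. As deposited, IMPDH2 (-0.66) and BTF3 (-0.41) were not 2-fold lower either. The lowess trend was fitted to all genes with the TOP mRNAs included, so at high signal it holds their own differences too.

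**Figure D4:**
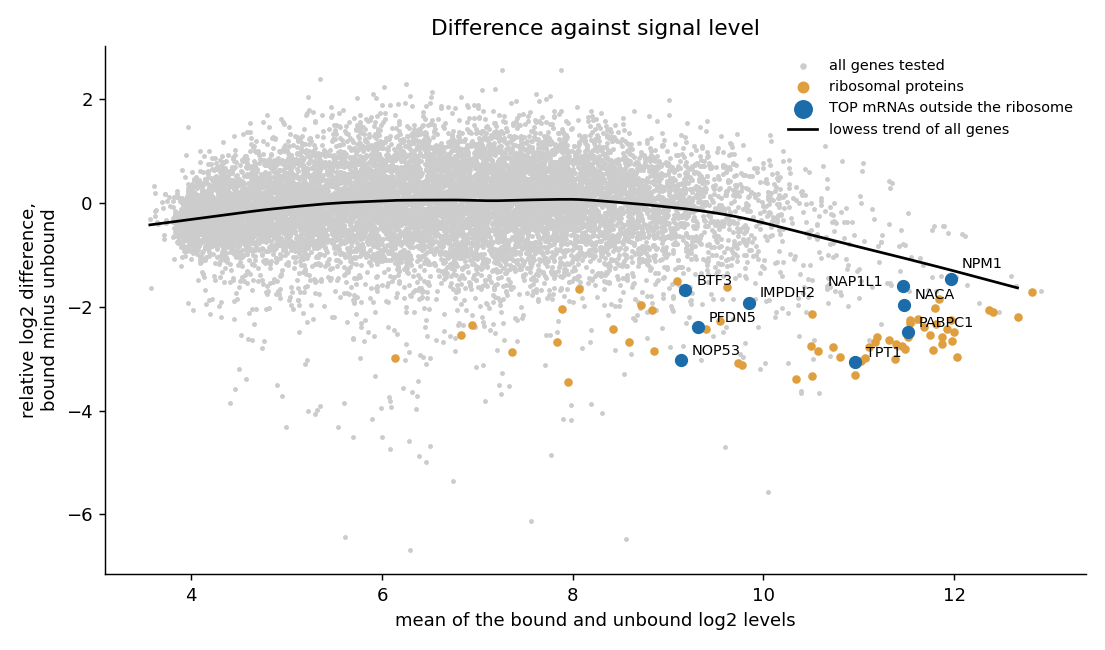
Relative log2 difference, bound minus unbound RNA (y axis), against the mean of both log2 levels (x axis) for all genes tested (grey), ribosomal proteins (orange) and the 9 TOP mRNAs (blue, named). The black lowess trend bends down at high signal, and once it is removed NPM1 has -0.16 and NOP53 -2.93.

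On the centred scale the size of the difference did not follow the length of the marked tract. TPT1 and NOP53, with the lowest values (-3.06 and -3.03), have marked runs of 8 bases. PFDN5 has the longest run of the measured mRNAs, 10 bases, with -2.40, and NPM1 and BTF3 have 9 bases with -1.46 and -1.68. NACA, with the shortest run of 6 bases, had -1.96, and NAP1L1, with 7, had -1.60. The marked runs open before the annotated start in PFDN5 (base -4), BTF3 (-3), TPT1 (-1) and NPM1 (-1). Their lengths therefore include bases that may not be transcribed, and lengths counted from the start were not compared. These are 7 genes and are given as a description.

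Across all genes, a tract exactly at the RefSeq start went with lower relative differences for bound minus unbound, also outside the TOP lists used here. With the mRNAs described here, the TOP translation factors and the ribosomal proteins left out, a split chosen after the data were seen, 670 genes had a tract at the start and a median relative difference of -0.36, against -0.02 for 8982 genes without. Bound levels were at least 2-fold lower for 21.0% of the genes with the tract and for 7.40% of those without. The median signal of the groups was 6.86 and 6.55 on the log2 scale, and the median genomic span 32.9 kb and 32.8 kb. With the run allowed to begin anywhere within 5 bases of the start and all genes kept, the medians were -0.15 for 2889 genes with it and 0.0021 for 6826 without.

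Against total RNA, the question is which pool departs from the cell's whole RNA. After centring, all 9 mRNAs were lower in bound than in total RNA and higher in unbound than in total RNA, although both comparisons share the total RNA array and are not independent. Direction alone is shared with many genes, because the medians of all genes lay near zero (-0.14 and -0.07). The 9 held percentiles 1.19 to 22.0 of all genes for bound minus total, and 68.1 to 98.4 for unbound minus total. With quantile normalization the direction turned for NACA in bound minus total (0.0077) and for NPM1 (-0.29) and NAP1L1 (-0.04) in unbound minus total, after lowess for NPM1 in unbound minus total (-0.19), and as deposited for NPM1 in unbound minus total (-0.0075) and for PFDN5 and NACA in bound minus total. For bound minus total the median relative difference was -1.23, beside -0.14 over all genes, and 7 of 9 were at least 2-fold lower, against 6.41% of all genes. On this scale 0 of 9 were 2-fold higher, against 2.66%. PABPC1 (-1.68), NOP53 (-1.58) and TPT1 (-1.57) were lowest, and NACA (-0.87) and PFDN5 (-0.52) were not 2-fold lower. As deposited 0 of 9 were 2-fold lower, against 0.572% of all genes, and 0 of 9 were 2-fold higher, against 40.1%. PFDN5 (0.51) and NACA (0.15) were higher in bound than in total RNA.

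For unbound minus total the median relative difference was 0.81, beside -0.07 over all genes, and 4 of 9 were at least 2-fold higher, against 8.09%, while 0 of 9 were 2-fold lower, against 9.96%. Those 4 were PFDN5 (1.88), TPT1 (1.49), NOP53 (1.46) and NACA (1.09). PABPC1 (0.81), IMPDH2 (0.66), BTF3 (0.59), NAP1L1 (0.41) and NPM1 (0.23) lay below the threshold. As deposited 3 of 9 were 2-fold higher, against 5.42%, and NACA was not, and 0 of 9 were 2-fold lower, against 16%. After centring, PFDN5 had the highest value of the 9 for unbound minus total and the one nearest to zero for bound minus total, whereas as deposited BTF3 (-0.05) and after lowess NACA (-0.03) was nearest to zero for bound minus total. Total RNA was purified with another kit than the RNA of the polysome pools, and the effects of kit and of source cannot be told apart here.

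**Figure D5:**
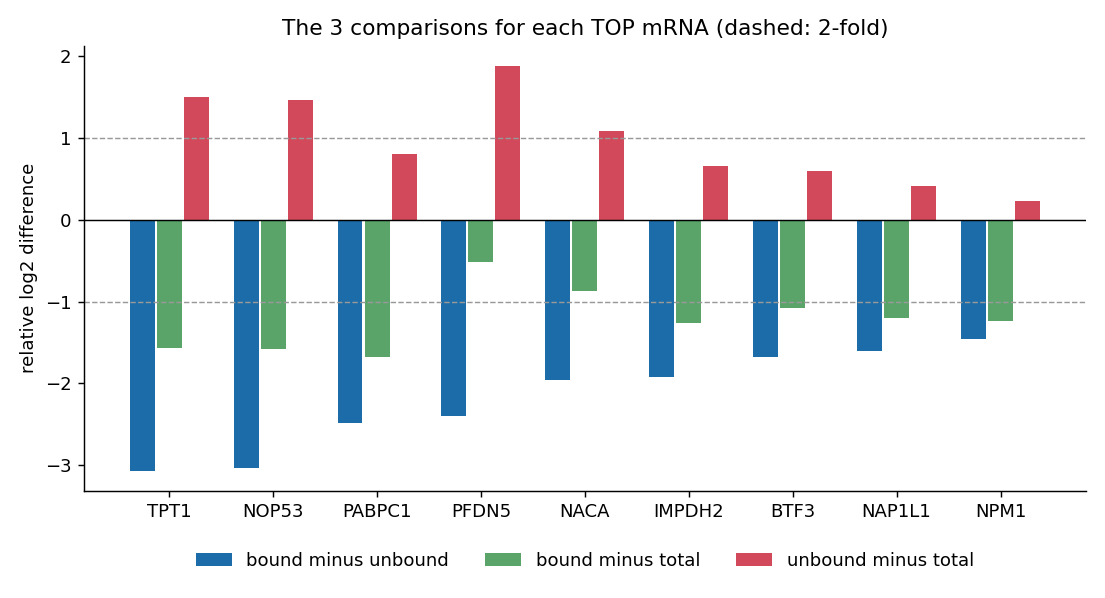
Relative log2 difference (y axis) in the 3 comparisons for each of the 9 mRNAs (x axis), with dashed lines at 2-fold. On this centred scale the bars for bound minus unbound and bound minus total lie below 0 and those for unbound minus total above 0 for all 9. For unbound minus total NPM1 turned below 0 with lowess (-0.19), and NPM1 (-0.29) and NAP1L1 (-0.04) with quantile normalization, which also turned NPM1 (0.072) above 0 for bound minus unbound and NACA (0.0077) for bound minus total.

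The genes whose pattern over the 3 arrays was most like the median of the 9 mRNAs were ranked by Euclidean distance on the relative differences for bound minus unbound (-1.96) and unbound minus total (0.81). The 10 nearest were EIF3D, RPS24, SNORD116-16, SCARNA9L, CSTF3, AFG2A, RPL8, CCNB1IP1, SNORA74A and RHBDL3, at distances from 0.0127 to 0.114. EIF3D, a subunit of an initiation factor, had -1.97 and 0.82. Of the 10, 2 are ribosomal protein mRNAs (RPS24 and RPL8), and the symbols of 3 are those of small nucleolar or Cajal body RNAs.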

How the data were processed

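The values deposited by the authors are log2 levels for each probe set on each array. Partek 6.5 and RMA, a method that corrects background and summarises probes, are named in the submitters' processing notes. All 33297 values of the bound column share their last decimals, as after adding a constant, so the scaling between arrays is unknown. Probe sets with 1 symbol were used (19460), and 1754 with several were not named as genes. Of several probe sets of a gene, that with the highest mean was kept. The filter required a mean above 3.84, the 95th percentile of 462 tissue-restricted receptor, keratin-associated and defensin genes, and background was the same percentile on each array. No test was run, because each source has 1 array and signal over background limits the precision. The genes, lists and alternatives were chosen with earlier results of these data known. All 10 genes are named, as are the 2 extremes at each end of the other TOP lists, and listed relatives and regulators past the filter. The listed snoRNAs SNORA31 and SNORD23, of TPT1 and NOP53 introns, have no probe set under 1 symbol here. Start sequences are RefSeq's, and protein length, a planned description, was not analysed here. Trends were fitted with statsmodels 0.14.6 (lowess span 0.3), other values with pandas 2.3.3 and numpy 2.4.6 under Python 3.11.15, and figures with matplotlib 3.10.9. The scripts were tested on simulated data.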

Additional observations from a re-analysis of the deposited data

How the results depend on the processing

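No paired analysis was possible because each source has 1 array. Bound minus unbound kept 9 of 9 mRNAs 2-fold lower with no signal filter, a stricter filter (99th percentile), protein-coding centring and the mean of all probe sets. The filter settings and protein-coding centring each moved all 9 values by 1 shared constant. With the value nearest to zero at -1.46, they could hardly change the count. The probe set mean did the same except for TPT1 (-2.54) and NPM1 (-1.38), so these settings are weak checks. At a 3-fold threshold 8 of 9 were lower, and a 1.5-fold threshold, being looser, could only give 9 of 9 again. As deposited the count was 4 and the median -0.70. With quantile normalization NPM1 turned to 0.072, NACA to 0.0077 in bound minus total, and NPM1 (-0.29) and NAP1L1 (-0.04) below 0 in unbound minus total, as did NPM1 (-0.19) with lowess. Of 22 relatives, 5 turned below their TOP mRNA with quantile normalization and with lowess. For bound minus total, 7 of 9 became 0 (median -0.20) as deposited, where 0.572% of all genes were 2-fold lower. The count was 2 (-0.73) with quantile normalization, 1 (-0.74) with lowess and 1 with a 3-fold threshold. For unbound minus total, 4 of 9 became 7 with a 1.5-fold and 1 with a 3-fold threshold, by the threshold's own construction. The cause of the other shifts was not tested. Shares of all genes are not given for the changed thresholds, filters, centring set and probe set mean. They are also missing for the comparisons with total RNA after lowess and quantile normalization. Those counts therefore have no background beside them. All 8 mRNAs in the table of RefSeq starts held a tract in each window tried.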

Other observations

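RACK1 hosts the box C/D snoRNAs SNORD95 and SNORD96A, guides of rRNA methylation, in its introns. SNORD95 had log2 levels of 8.84 in bound, 8.69 in unbound and 6.71 in total RNA, and SNORD96A had 5.54 in bound, 6.72 in unbound and 3.41 in total RNA. Both were lower in bound than in unbound RNA after centring (-1.11 for SNORD95 and -2.44 for SNORD96A). SNORD95 was higher than in total RNA in both pools, with relative differences of 1.10 for bound and 2.21 for unbound RNA. Total RNA was purified with another kit than the pools, so for SNORD95 too the effects of kit and of source cannot be told apart. SNORD96A in total RNA lay below that array's background of 3.76, so no difference from total RNA is given. These are processed small RNAs, and they give no level of the RACK1 mRNA.

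A stretch of letters recurs in several of the RefSeq windows. The letters GCCATCTT or, on the opposite strand, AAGATGGC, a core that the zinc finger factor YY1 is known to bind, occur in the RefSeq windows of 300 bases of 4 of 8 TOP mRNAs (NACA, BTF3, NOP53 and RACK1), in those of 6 of 27 relatives and partners (NACA2, BTF3L4, PFDN1, PFDN4, VBP1 and GNB5), and in 2.89% of all 35116 promoter windows. From 15 bases before the start to the end of the window they occur in 3 of the 8 (NACA, BTF3 and NOP53), in 5 of the 27 and in 1.64% of all windows. The letters were chosen after the sequences were seen, and they are not limited to the TOP mRNAs. The NACA and BTF3 relative differences for bound minus unbound were -1.96 and -1.68, and NOP53 had -3.03, beside -3.06 for TPT1, -2.40 for PFDN5, -1.60 for NAP1L1 and -1.46 for NPM1 without the letters in their windows.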
